A study of Oryza sativa Indica Group with 8 samples.

Results

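The comparison describes what Fe withdrawal changed in rice roots grown without P. It sets the 2 arrays of roots deficient in both P and Fe against the 2 arrays of roots deficient in P alone, chosen by their titles and treatment labels, and so uses 4 of the 8 arrays of the study for its groups. The other 4 arrays, 2 from control roots with both nutrients and 2 from roots deficient in Fe alone, entered the estimate of the spread and give the same Fe withdrawal in roots with P. All 8 arrays measured total RNA from roots of Oryza sativa (Indica Group) seedlings in hydroponic culture, on the Affymetrix rice array. The labels give 7 days of treatment, seedlings of 5 days and 10 days of hydroponic growth, and do not say that P was removed before Fe or name a cultivar.

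Like other grasses, rice makes nicotianamine from methionine, converts it into the iron chelator deoxymugineic acid, secretes that into the soil and takes back the iron complex through yellow stripe-like (YSL) transporters, and it also takes up ferrous iron directly. Iron shortage is known to raise the genes of this pathway in roots, together with bHLH transcription factors that drive or restrain it. Phosphate shortage acts through PHR transcription factors, which SPX proteins hold back while phosphate is plentiful, and raises phosphate transporters, lipid-remodelling enzymes and the SPX genes themselves.

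Intensities were quantile-normalized and carry arbitrary units, and a change is a difference of log2(intensity + 16), which understates the change of dim probe sets. "Rose" and "fell" mean an adjusted p below 0.05 in limma over all 57194 probe sets. Median intensities before normalization were 62.1 and 62.9 on the P deficient arrays and 63.9 and 68.9 on the arrays deficient in both. Across probe sets, which are not independent, the 2 P deficient arrays correlated at 0.969, the 2 arrays deficient in both at 0.970, and arrays of different groups among these 4 at 0.965 to 0.967. The 3' over 5' signal of an actin control pair, a measure of RNA integrity, was 20.9 and 21.1 on the P deficient arrays and 27.9 and 24.9 on the arrays deficient in both. It was 45.2 and 34.6 on the control arrays and 29.1 and 26.7 on the Fe deficient arrays. The Gapdh control pair went the other way. Its 3' signal was 24310 and 26830 in P deficiency and 21650 and 22820 in the combined deficiency. Its 5' signal was 2755 and 3264 in P deficiency and 3402 and 3537 in the combined deficiency. The control pairs thus gave no single order of RNA integrity, and its part in the results was not tested. The labels do not tell whether the replicate arrays of a treatment hold RNA from different cultures. The p-values therefore rest on array-to-array spread that could be purely technical.

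Fe withdrawal without P changed few probe sets by this test. A total of 13 rose (0.0227% of those tested) and 5 fell (0.00874%), 18 in all (0.0315%). At an unadjusted p below 0.05 there were 3035 higher (5.31%) and 2771 lower (4.84%), 10.2% in all. Groups that did not overlap and differed at least 2-fold were found for 2.65% of probe sets in the higher and 2.48% in the lower direction. The rises included a lipid transfer protein gene, a metallothionein gene and 5 genes known here by locus number only, and the falls included 2 such genes. The 9 other probe sets had no gene in the tables used here. The count depended on how limma estimated the spread: 707 probe sets (1.24%) passed with a prior that follows intensity, 504 of them higher (0.881%) and 203 lower (0.355%) and all 18 among them, while 0 passed (4905 to 5526 at an unadjusted p below 0.05) when any 1 array of the P deficient, the Fe deficient or the doubly deficient group was left out. None passed either with the 4 arrays of the comparison fitted alone (5311 at an unadjusted p below 0.05).

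LTP2-B (LOC4351317), a gene of the type 2 nonspecific lipid transfer proteins, small secreted proteins that bind lipids, had intensities of 151 and 153 in P deficiency and 1311 and 1237 in the combined deficiency. It stood at 15.6 and 18.8 in the control and at 1992 and 2088 in Fe deficiency with P. Both arrays of the combined deficiency lay far above both P deficient arrays and below both Fe deficient arrays. The rise was 7.68-fold (log2 change 2.94, SE 0.135, limma adjusted p = 0.0134), smaller than the change of 5.95 in roots with P (difference -3.01, adjusted p = 0.0271). A second probe set of the gene was at 2.15 and the remaining, dim one at -0.81, and neither passed (adjusted p = 0.268 and 0.427).

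OsMT-I-2c (LOC4337596), a metallothionein gene, codes for a small cysteine-rich protein that binds metals. Its probe set read 2612 and 2373 in P deficiency and 10070 and 9822 in the combined deficiency, against 2899 and 2709 in the control and 15050 and 15860 in Fe deficiency. The 2 groups without P did not overlap, and the control lay with the P deficient arrays. The rise was 3.98-fold (1.99, SE 0.136, adjusted p = 0.034), and the change in roots with P was 2.46 (adjusted p = 0.0101). The 4 other probe sets of the gene were at 1.01 to 1.45 without P and did not pass, with adjusted p from 0.076 to 0.278. Probe sets of this kind, with names ending in x_at, can take signal from related transcripts, so members of this family may share it.

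Of the genes known by locus number, 4 rose both without and with P. LOC4350823 went from 382 and 370 in P deficiency to 4501 and 4664 in the combined deficiency (3.55, SE 0.161, adjusted p = 0.0134). LOC4333634 went from 153 and 152 to 1523 and 1520 (3.19, adjusted p = 0.0134), and LOC4350216 from 33.1 and 43.2 to 600 and 557 (3.46, adjusted p = 0.0247). In all 3 the arrays of the combined deficiency lay far above those of P deficiency and control, and below the Fe deficient arrays with P. Their changes with P were 5.43, 3.75 and 4.30.

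LOC4330830 rose from dim levels. It stood at 6.41 and 5.70 in P deficiency and at 1106 and 767 in the combined deficiency, against 60.8 and 39.2 in the control and 2073 and 1344 in Fe deficiency (5.41, SE 0.304, adjusted p = 0.0173). The P deficient arrays were the lowest of the 8. Of the 2 other probe sets of the gene, one was at 0.18 (adjusted p = 0.876) and one at 3.11 (adjusted p = 0.135), so neither passed. A probe set with no gene but the same cluster number in its name, Os.57438.1.A1_at, rose as well, from 1.68 and 4.06 to 159 and 131 (3.09, adjusted p = 0.0224). In the gene table used here, of a japonica assembly, LOC4330830 is next to AMY1.1 (LOC4330832), an alpha-amylase gene that breaks down starch, with 0 genes between them. AMY1.1 itself stood at 196 and 127 in P deficiency and 12280 and 9387 in the combined deficiency, which did not overlap, at a change of 5.95 (SE 0.507) and an adjusted p = 0.06. Its level was 37.9 and 2.92 in the control and 19350 and 20990 in Fe deficiency, where it rose (9.30, adjusted p = 0.0101). The genes of LTP2-B and of the lipid transfer protein LTP (LOC4351318, at 1.85 with an adjusted p = 0.174) are also adjacent in that table, with 0 genes between.

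Other rises passed in roots without P alone. LOC4349197 read 9.55 and 6.58 in P deficiency and 136 and 138 in the combined deficiency, with 4.80 and 2.12 in the control and 3.31 and 2.37 in Fe deficiency. It was high on the 2 arrays of the combined deficiency alone (2.67, SE 0.149, adjusted p = 0.0173), and the Fe change differed from that with P by 2.72 (adjusted p = 0.0463). Probe set Os.48206.1.S1_at, with no gene, showed the same pattern at 5.20 and 3.41 against 710 and 730, and at most 17.8 on the other arrays (5.18, adjusted p = 0.0134; difference 4.82, adjusted p = 0.0434).

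Probe set Os.9273.1.S1_x_at, also with no gene, went from 40.0 and 79.6 to 2140 and 2041 (4.85, adjusted p = 0.0249), and its Fe change differed from that with P by 5.64 (adjusted p = 0.0463). Os.25553.1.A1_at and Os.42975.1.S1_at rose by 2.88 and 2.22 (both with adjusted p = 0.034), and stood at 2.12 and 2.34 and at 131 and 126 in Fe deficiency with P. The Fe change of these last 2 was not shown to differ with P supply (adjusted p = 0.0733 and 0.122). OsAffx.26357.1.S1_at was low on the P deficient arrays alone, at 1.62 and 1.35 against 61.9 to 92.5 on the 6 others (2.27, adjusted p = 0.0248). Over the 13 rises, 7 also rose with Fe withdrawal in roots with P, 4 had a Fe change that differed with P supply, and 5 had an unadjusted p of 0.05 or more in roots with P. Of all probe sets, 0.105% rose with Fe withdrawal in roots with P and 0.0402% had a Fe change that differed. The test of that difference takes in the rise by which the 13 were chosen, and both Fe comparisons share the pooled spread.

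**Figure D1:**
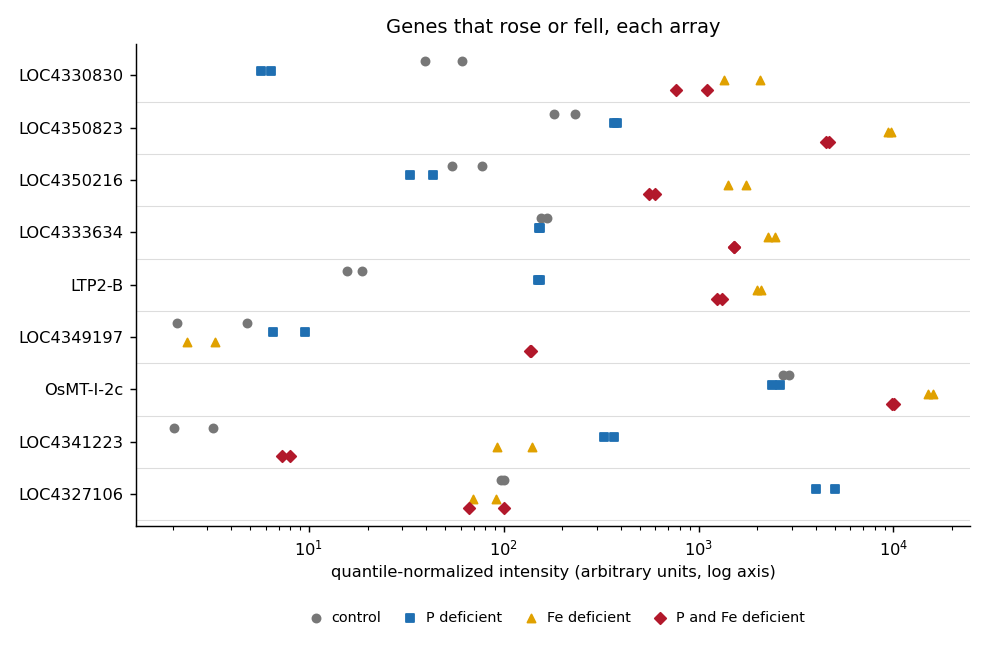
Quantile-normalized intensity (log axis, arbitrary units) of the 9 probe sets with a gene that rose or fell, as 1 point for each of the 8 arrays, 2 per group, ordered by the change between the groups without P. Of the 7 rises only LOC4349197 is high on the arrays deficient in both and low on the 6 others, and both falls are high on the P deficient arrays and low on the arrays deficient in both.

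All 5 probe sets that fell were high in P deficiency alone among the groups without P, and in each of them the combined deficiency lay near the control. LOC4327106 read 5017 and 3984 in P deficiency, 101 and 66.1 in the combined deficiency, 99.9 and 96.6 in the control and 69.6 and 91.7 in Fe deficiency. It was thus high on the P deficient arrays alone, and the other 6 arrays lay together. The fall was 45.8-fold (-5.52, SE 0.240, adjusted p = 0.0134). The 2 other probe sets of the gene were at -4.48 and -3.29, with adjusted p = 0.114 and 0.057.

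LOC4341223 read 329 and 367 in P deficiency, 7.29 and 8.02 in the combined deficiency and 3.21 and 2.02 in the control (-3.94, SE 0.203, adjusted p = 0.0134). Unlike LOC4327106 it also rose with Fe deficiency in roots with P, to 139 and 92.8 (2.80, adjusted p = 0.0244). Each single deficiency therefore stood above both the control and the combined deficiency. Probe set Os.17045.1.S1_s_at, with no gene, had the same order, at 146 and 144 in P deficiency and 113 and 129 in Fe deficiency, against 6.46 and 9.22 in the control and 6.32 and 5.99 where both were withheld (-2.86, adjusted p = 0.0134). Os.10246.5.S1_at went from 1195 and 1123 to 2.16 and 2.19 (-6.01, adjusted p = 0.0134) and OsAffx.23898.1.S1_at from 50.3 and 48.4 to 2.97 and 2.53 (-1.80, adjusted p = 0.0346). In all 5 the Fe change differed from that with P (limma adjusted p from 0.0167 to 0.0271). That test takes in the fall by which the 5 were chosen, so it is not a separate result.

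The test of the difference between the Fe change without P and with P, which uses all 4 groups, passed for 23 probe sets (0.0402%), 4 with a higher Fe change without P (0.00699%) and 19 with a lower one (0.0332%), and 12 of them had a gene. Besides the genes already described, LOC9271323 was at 246 and 305 in P deficiency, 281 and 321 in Fe deficiency, 39.6 and 11.5 in the control and 1.51 and 1.02 in the combined deficiency. Either deficiency stood above the control and the combination below it (difference -7.08, adjusted p = 0.0322). LOC9266843, annotated as a noncoding transcript, had the same order, with 1167 and 1078, 798 and 757, 284 and 212, and 131 and 177 in those groups (difference -4.35, adjusted p = 0.0322).

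OsACA1 (LOC4326507) read 55.2 and 41.8 in P deficiency, 82.5 and 72.5 in Fe deficiency, 2.93 and 6.75 in the control and 7.26 and 6.77 in the combined deficiency (difference -3.65, adjusted p = 0.0322). Its own change between the groups without P, -1.48, did not pass (adjusted p = 0.108). In LOC4352472 the combined deficiency, at 491 and 496, lay below P deficiency (1075 and 1214) and Fe deficiency (3151 and 3040) but above the control (79.3 and 38.8), with a difference of -6.61 (adjusted p = 0.0271). Most of the remaining genes were high in Fe deficiency with P and much less so without it. LOC4334975 stood at 782 and 997 in Fe deficiency and 62.9 and 54.4 in the combined deficiency, LOC4349058 at 2751 and 2551 against 153 and 185, and LOC4334918 at 218 and 211 against 5.46 and 5.14. Their differences were -4.86, -4.55 and -3.06 (each with adjusted p = 0.0271). LOC4340877 differed by -4.16 (adjusted p = 0.0271) with 136 and 125 in P deficiency and 543 and 435 in the combined deficiency, which did not overlap, against 1.01 and 4.60 in the control and 1104 and 1158 in Fe deficiency.

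**Figure D2:**
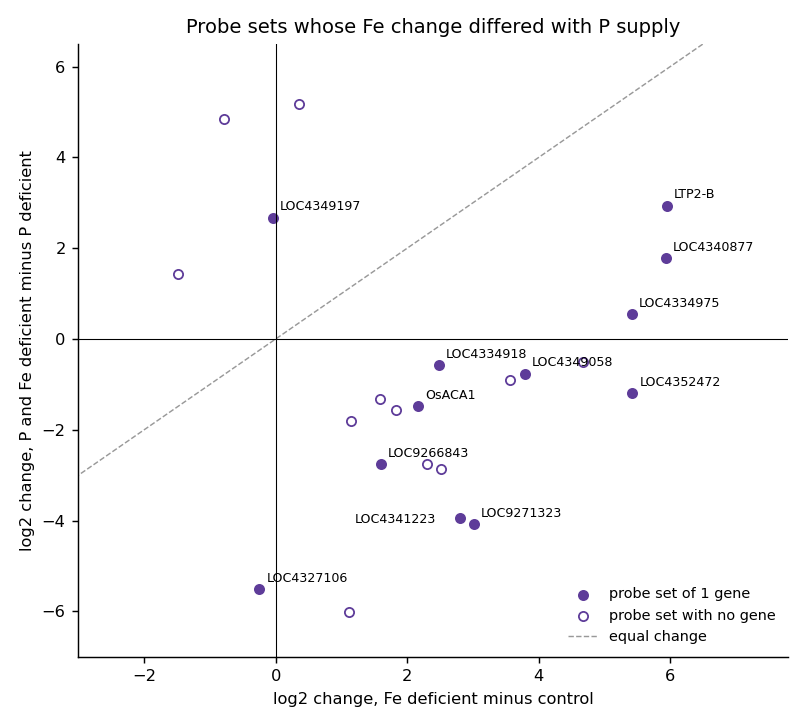
Log2 change with Fe withdrawal in roots without P (vertical axis) against roots with P (horizontal axis) for the 23 probe sets whose Fe change passed the test of the difference, with genes named and the dashed line marking equal change. The 19 points below the line have a lower Fe change without P, and most of them lie below 0 on the vertical axis and above 0 on the horizontal one.

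The 2 Fe comparisons use no array in common. Of the 60 probe sets that rose with Fe withdrawal in roots with P (0.105% of those tested), 45 were higher in the combined deficiency than in P deficiency, 39 of them at an unadjusted p below 0.05, and 7 rose. The median change of the 60 was 1.00 without P and 2.50 with P, and the latter is set by how the 60 were chosen. In the other direction, 14 were lower at an unadjusted p below 0.05 and 2 fell. Of all probe sets without P, 5.31% were higher and 4.84% lower at that level, 0.0227% rose and 0.00874% fell. The test of the difference passed for 12 of the 60, against 0.0402% of all probe sets. It subtracts the change with P by which the 60 were chosen, so that choice itself favours a lower difference. Of the 11 that fell with P (0.0192%), 9 were also lower without P, 3 of them at an unadjusted p below 0.05. Over all probe sets the 2 Fe changes correlated at 0.0472, across probe sets that are mostly dim and not independent.

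All iron uptake genes measured were higher in the combined deficiency than in P deficiency, by 0.07 to 1.14 on the log2 scale. None of the 11 measured of 20 listed passed the test, 5 were higher and 0 lower at an unadjusted p below 0.05, where 6.17% of all 17905 genes were higher, and the median change was 0.28 (0.51 without P deficient replicate 2) against -0.01 for all genes. In roots with P the same 11 had 9 higher (3.75% of all genes) and a median of 1.19. OsNAAT1 (LOC9267778), nicotianamine aminotransferase, which commits nicotianamine to deoxymugineic acid, read 4009 and 4001 in P deficiency and 8622 and 9091 in the combined deficiency, against 7399 and 7831 in the control and 13550 and 12900 in Fe deficiency. The groups without P did not overlap, with a change of 1.14 (SE 0.130, adjusted p = 0.107), against 0.80 with P. With the intensity-dependent prior it passed (adjusted p = 9.44e-05), as did 3 others of the list, OsNAS2, OsNAS1 and OsNramp1, so 4 of 11 against 1.80% of all genes.

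The nicotianamine synthase genes OsNAS1 (LOC4332608) and OsNAS2 (LOC4332607), which are adjacent with 0 genes between them, make the precursor. OsNAS2 stood at 5758 and 6280 in P deficiency and at 10510 and 10980 in the combined deficiency (0.84, SE 0.146, adjusted p = 0.172), and it rose with P from 3514 and 3030 to 13090 and 13210 (2.00, adjusted p = 0.0244). OsNAS1 stood at 13530 and 15740 and at 24730 and 24230 (0.75, adjusted p = 0.199), and rose by 1.63 with P. For both genes the P deficient arrays lay above the control arrays, and the arrays of the combined deficiency below the Fe deficient ones. The difference between the Fe changes was -1.17 for OsNAS2 and -0.88 for OsNAS1, and neither passed (adjusted p = 0.225 and 0.319).

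Among transporters, OsNramp1 (LOC4342862), a divalent metal transporter, read 635 and 858 in P deficiency and 1535 and 1688 in the combined deficiency (1.11, SE 0.199, adjusted p = 0.178). OsYSL15 (LOC9268232), which takes up the iron complex of deoxymugineic acid, read 571 and 502 against 657 and 576 (0.20, SE 0.174, adjusted p = 0.765), while it rose from 438 and 482 to 1674 and 2051 with P (1.98, adjusted p = 0.0366). The arrays of the combined deficiency lay above both P deficient arrays by a small margin, and far below the Fe deficient ones, but the difference of -1.78 did not pass (SE 0.246, unadjusted p = 0.000432, adjusted p = 0.167). The other members stood at 0.42 (OsYSL9), 0.28 (OsNramp5), 0.26 (OsIRT2), 0.16 (OsYSL16), 0.07 (OsYSL18) and 0.07 (OsIRT1, the ferrous iron transporter), and the last 3 turned below 0 when a P deficient array was left out. OsYSL13 (LOC4336441), of the same family but outside the list, read 522 and 505 in P deficiency and 1040 and 1047 in the combined deficiency, close to the 1133 and 1102 of the control (1.00, adjusted p = 0.112).

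Of the regulators only 2 of 17 listed were measured. IRO3 (LOC4332972), a bHLH repressor of the iron deficiency response, read 360 and 404 in P deficiency and 726 and 851 in the combined deficiency (1.01, SE 0.211, adjusted p = 0.225), close to its 1.17 with P, and IDEF1, a transcription factor of that response, was at -0.05. Of the storage and distribution genes 4 of 15 were measured, and all 4 were lower. OsVIT2 (LOC4346978), a vacuolar iron transporter, read 8011 and 10320 against 4413 and 5394 (-0.90, SE 0.240, adjusted p = 0.319), close to -0.95 with P, and it and OsNramp3 had an unadjusted p below 0.05. OsVIT1, of the same family, was at -0.63, the metal transporter gene OsNramp3 at -0.34 and the nicotianamine synthase gene OsNAS3 at -0.22, against 0.70 with P for the last.

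**Figure D3:**
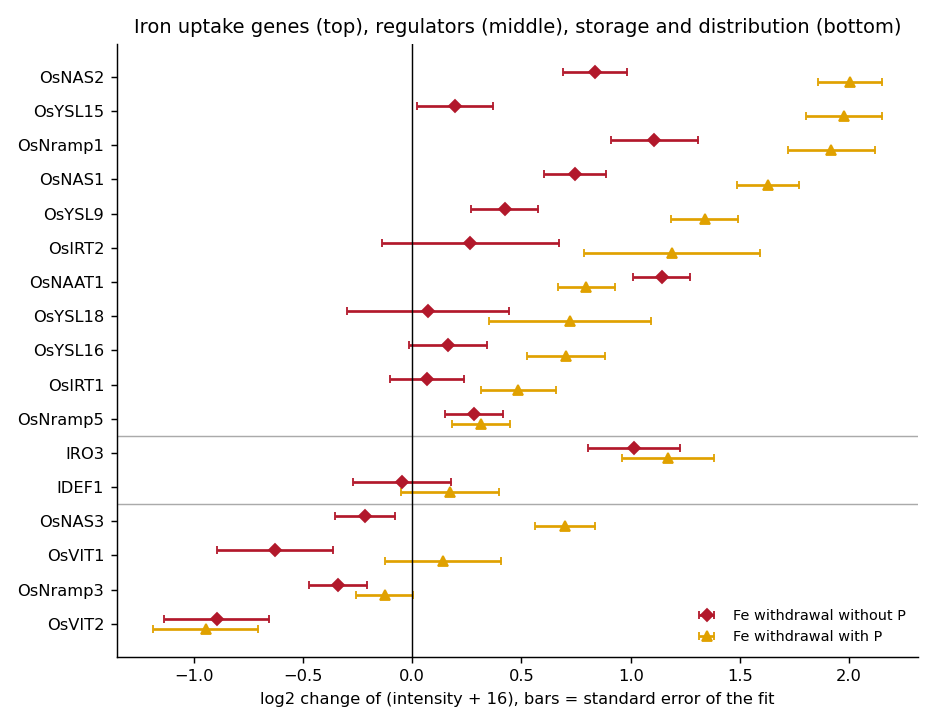
Log2 change with Fe withdrawal without P (diamonds) and with P (triangles) for the 17 measured iron genes, with bars for the standard error of the fit. The uptake genes all lie to the right of 0 without P, and OsNAAT1 is the only one of these 11 whose change was larger without P than with it.

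The methionine cycle renews the methionine from which nicotianamine is made. None of its 6 measured genes of 21 listed passed, 1 was higher at an unadjusted p below 0.05 and the median was 0.26. That gene was ARD2 (LOC4331707), an acireductone dioxygenase, at 2993 and 3202 in P deficiency and 4790 and 5518 in the combined deficiency (0.73, adjusted p = 0.225). Among 7 metallothioneins, taken with the brightest probe set of each, OsMT-I-2c was at 1.16 (adjusted p = 0.112), the 6 others were at 0.00 to 0.48, and the median was 0.22, which turned to -0.02 when the deposited values were centred on each array's median, and 5 of the 6 then lay below 0. OsIDS1 (LOC4352580) of this list stood at 14600 and 12980 against 14870 and 15630 (0.15), where it had risen by 1.93 with P (difference -1.79, adjusted p = 0.134). The glutaredoxin gene GRXC10 (LOC4351046) read 71.2 and 59.6 against 154 and 165 (1.11, adjusted p = 0.263), and with P it rose from 16.1 and 36.9 to 594 and 644.

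Phosphate starvation genes had a median change near 0, with members on both sides of it. Of 11 measured of 23 listed, none passed, and 1 was higher and 2 were lower at an unadjusted p below 0.05. Of all genes 6.17% were higher and 5.28% lower. The median was -0.10 (-0.06 without P deficient replicate 2 and -0.21 with median centring). The higher member was the transporter gene OsPT4 at 0.84, while OsPT8 was at 0.51 and OsPT6 at -0.60. OsSPX1 read 9183 and 9902 in P deficiency and 8665 and 8974 in the combined deficiency (-0.11, SE 0.131), against 889 and 899 in the control. OsSPX2 (0.01), OsSPX5 (-0.10), the galactolipid synthase gene OsMGD3 (-0.10) and the phosphate exporter gene OsPHO1;2 (-0.07) lay as close to 0. The 2 lower members were OsSPX3 (LOC4348535), at 2041 and 2402 against 1323 and 1264 (-0.77, SE 0.293, adjusted p = 0.467), and OsMGD2 (LOC4345212), at 1776 and 1883 against 1211 and 1379 (-0.50, SE 0.157, adjusted p = 0.383). For both, the combined deficiency lay below P deficiency on both arrays and far above the control arrays, which read 10.9 and 30.4 and 27.5 and 21.7.

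Among the 9 measured PHT1 phosphate transporters of 13 listed, none passed, 2 were higher at an unadjusted p below 0.05 and the median was -0.02, which turned to 0.03 on the deposited scale. OsPT1 (LOC4331635) read 1563 and 1623 in P deficiency and 2906 and 2908 in the combined deficiency, between those and the 4449 and 3928 of the control (0.86, SE 0.137, adjusted p = 0.151, and 0.00117 with the intensity-dependent prior). OsPT4 was at 0.84, OsPT8 at 0.51, OsPT6 at -0.60 and OsPT2 at -0.17, with adjusted p of 0.387 or more. The 4 dim members OsPT3, OsPT7, OsPT11 and OsPT12 lay between -0.60 and 0.10. Of the regulators OsPHR1 (-0.01), OsPHR2 (0.01), OsPHR3 (0.57) and OsSPX4 (0.12), none passed, and OsPHR3 alone had an unadjusted p below 0.05.

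Besides AMY1.1, OsNAAT1 and OsYSL13, the named genes with the smallest p that did not pass and were at least 2-fold higher in the combined deficiency were led by OsHAK5 (LOC4326945), a high-affinity potassium transporter gene. It read 121 and 109 in P deficiency and 454 and 536 in the combined deficiency, against 256 and 238 in the control (1.96, SE 0.151, adjusted p = 0.0515), but its brighter probe set was at 0.45 (adjusted p = 0.524). CYP99A3 (LOC4335091), a cytochrome P450 of momilactone synthesis, read 1315 and 1412 against 4350 and 4596, near the 3943 and 3563 of the control (1.70, SE 0.138, adjusted p = 0.057). The beta-glucosidase gene Os9bglu30 (LOC4347441) was at 1.75 and the laccase gene LAC24 (LOC4351915) at 1.60, and both had adjusted p above 0.05 (0.0681 and 0.102). DXPS, the entry enzyme of plastid isoprenoid synthesis, was 2.15-fold higher, and the photosystem I subunit gene OsPSAG was at 1.15 and the chitinase gene Cht1 at 1.05. A dimmer probe set of OsPSAG was at -1.22.

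On the lower side OC-XII (LOC4326272), a cystatin that inhibits cysteine proteases, was the one bright gene. It read 3988 and 3745 in P deficiency and 1481 and 1292 in the combined deficiency, against 2065 and 1970 in the control (-1.47, SE 0.141, adjusted p = 0.076), so the combined deficiency was the lowest of the 4 groups. OsJAZ9 (LOC4331832), a jasmonate signalling repressor, read 117 and 144 against 48.6 and 42.7 (-1.25, adjusted p = 0.136), also the lowest of the 4 groups. The 10 others, OsTPP7 (-2.44), PIK6-NP (-2.04), OsTBT2 (-1.85), OsMYBS2 (-1.61), OsbHLH172 (-1.56), Q-enzyme (-1.53), OsACA1, QM1 (-1.48), OsMADS21 (-1.22) and OsGBSS1 (-1.20), had intensities of at most 157 on the 8 arrays in the probe set named. The brightest probe sets of OsMYBS2, Q-enzyme and QM1 were at 0.26, 0.11 and -0.02. A dimmer probe set of PIK6-NP was at 0.52, another of OsTPP7 at -0.89, and 5 others of OsGBSS1 at -0.08 to -0.84.

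**Figure D4:**
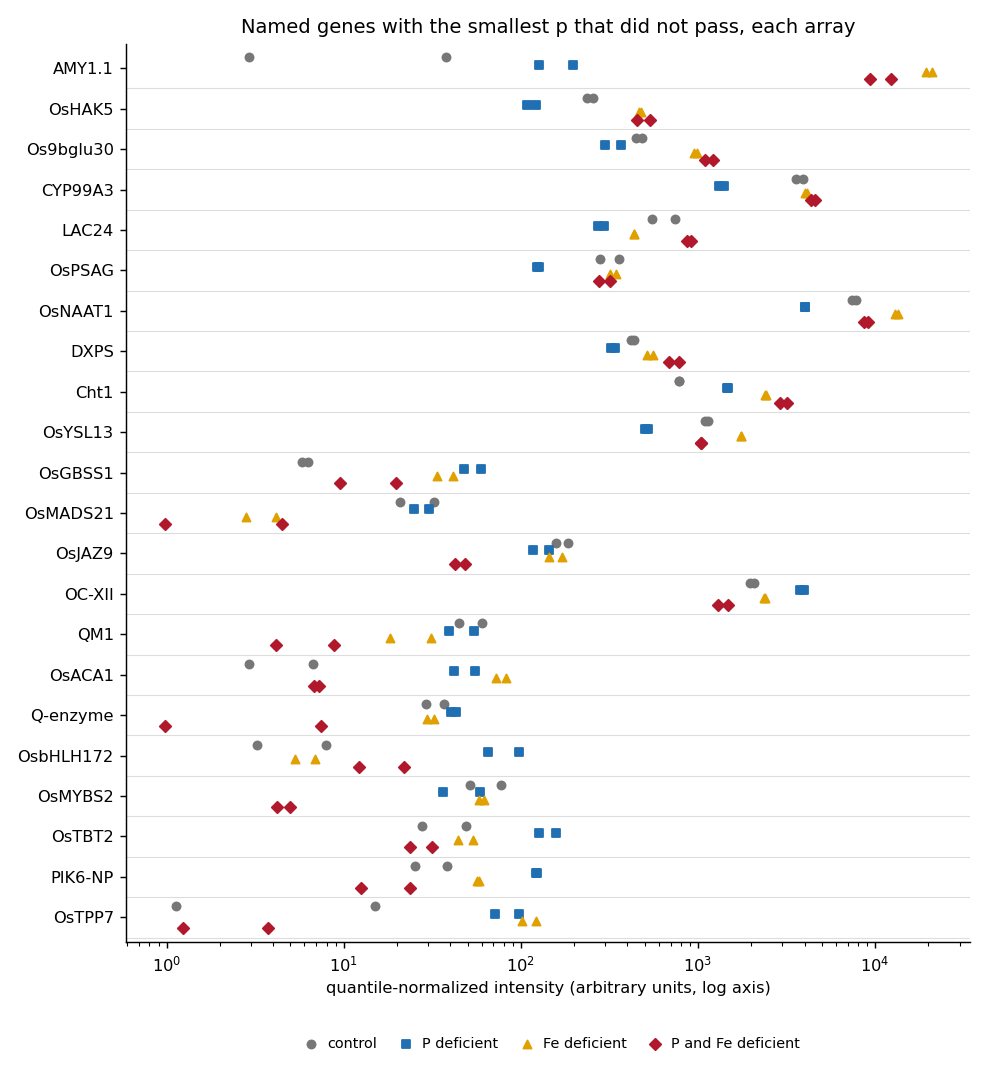
Quantile-normalized intensity (log axis, arbitrary units) on each of the 8 arrays for the 22 named genes with the smallest p, at least 2-fold apart and without overlap, that did not pass the test. The first 10 from the top are higher in the combined deficiency than in P deficiency and the other 12 are lower, most of these at dim levels.

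Several defence genes were higher without passing the test. Of 20 measured genes of diterpenoid phytoalexin synthesis, the antimicrobial momilactones, phytocassanes and oryzalexins of rice, 5 were higher and 0 lower at an unadjusted p below 0.05, and the median was 0.39. Over all genes these shares were 6.17% and 5.28%, which also apply to the counts of the other lists. Besides CYP99A3 these were OsKO5 (2.21), OsDTC1 (1.11), a diterpene cyclase gene, OsKO4 (1.06) and OsCPS4 (0.99), the copalyl diphosphate synthase of the momilactone branch, all with adjusted p of 0.127 or more. CYP99A3 and OsCPS4 are adjacent, with 0 genes between, and OsKO4 and OsKO5 have 1 gene between them. All 5 passed with the intensity-dependent prior (adjusted p from 2.31e-05 to 0.0463), as did 1.80% of all genes in that direction. Genes of other kinds passed with that prior too, among them the photosynthesis genes OsPSAG (adjusted p = 0.0229) and LIR1 (0.045). In the lower direction 0.676% of all genes passed, among them OC-XII (8.135e-05), the peroxidase gene PRX74 (0.00106), OsVIT2 (0.0378) and the kinesin gene KIN12C (0.039). The median of the diterpenoid list with P was 0.70, where 9 were higher at an unadjusted p below 0.05, against 3.75% of all genes with P.

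Of 12 pathogenesis-related genes 5 were higher and 0 lower at that level, with a median of 0.13, which was 0.08 to 0.47 with 1 array left out (0.34 without P deficient replicate 2 and 0.47 without doubly deficient replicate 2). Cht1 read 1472 and 1468 in P deficiency and 3197 and 2918 in the combined deficiency (adjusted p = 0.112), the ribonuclease-like gene PBZ1 was at 0.76 and the chitinase gene OsChia1a at 0.76. Of 6 WRKY transcription factors 3 were higher, with a median of 0.59. OsWRKY76 (LOC4347069) read 722 and 975 against 1772 and 2086 (1.18, SE 0.190, adjusted p = 0.155) and its neighbour OsWRKY62 (LOC4347070) 880 and 946 against 1552 and 1654 (0.80, adjusted p = 0.167). Both were also above the control arrays. OsWRKY71 was at 0.62. With P these 3 stood at 0.26, -0.30 and -0.72.

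Kinesin, cyclin and cellulose synthase genes lay mostly below 0. Of other wall genes, 15 of 23 laccase and lignin genes and 12 of 29 expansin genes lay above it. Of all genes, 6.17% were higher and 5.28% lower at an unadjusted p below 0.05. Of 60 kinesin and cyclin genes, drawn by name, none passed, 0 were higher and 10 lower at an unadjusted p below 0.05, and the median was -0.21. KIN12C (LOC4333349) read 1684 and 1527 in P deficiency and 1112 and 1070 in the combined deficiency, against 708 and 677 in the control (-0.55, SE 0.141, adjusted p = 0.3), and the cyclin gene CYCA2-1 (-0.57) and the kinesin gene KIN14B (-0.84) lay between P deficiency and control in the same way. Of 29 cellulose synthase and related genes 0 were higher and 7 lower, with a median of -0.15 (-0.03 without doubly deficient replicate 1), led by OsCslD5 (-1.49), OsCesA5 (-0.41) and OsCslA1 (-0.40). Of 24 cytosolic ribosomal protein genes 1 was lower, RPS10-1 at -0.37, a share of 4.17% that does not exceed that of all genes. Their median was -0.14, and -0.29 on the deposited scale and -0.36 with median centring. Of 58 auxin response genes 2 were higher and 6 lower, with a median of -0.08, among them SAUR39 at 0.94, OsPIN5 at -0.71 and IAA1 at -0.54.

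Of 23 laccase and lignin genes 5 were higher and 2 lower at that level, with a median of 0.11, which was -0.01 without P deficient replicate 1 and 0.27 without P deficient replicate 2. LAC24 read 272 and 296 in P deficiency and 920 and 864 in the combined deficiency, and LAC19 (LOC4351005) 260 and 271 against 616 and 636 (1.19, adjusted p = 0.239). LAC10 (LOC4332400) read 5699 and 5347 against 3473 and 4160 (-0.54, adjusted p = 0.36). With P, LAC24 and LAC19 were at -0.54 and -0.78, and the difference between the Fe changes did not pass for LAC24 (2.14, adjusted p = 0.13). The peroxidase gene PRX74 (LOC4339222) read 11930 and 11950 against 7183 and 7216, with 2505 and 2525 in the control (-0.73, SE 0.125, adjusted p = 0.167).

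The remaining lists had no member that passed, their counts are at an unadjusted p below 0.05 (6.17% of all genes higher, 5.28% lower), and their medians lay between -0.29 (DREB and ERF) and 0.34 (ZIP). Of 8 zinc and iron transporter (ZIP) genes 1 was higher, OsZIP5 at 0.38, and 2 of the 12 genes for metal ATPases, MTP and COPT transporters were, OsCOPT2 at 1.07 and OsHMA2 at 0.53. OsCOPT2 (LOC4338846), a copper transporter gene, read 24.1 and 26.4 in P deficiency and 66.1 and 74.8 in the combined deficiency, below the 129 and 155 of the control. Of 24 potassium and sodium transporters 3 were higher and 1 lower, with OsHAK17 at 1.44, OsHAK16 at 0.96 and OsHAK22 at 1.53, and of 70 abscisic acid and PP2C genes 8 were higher and 5 lower, with the dehydrin gene RAB21 at 0.65 and OsPP2C21 at -0.75.

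**Figure D5:**
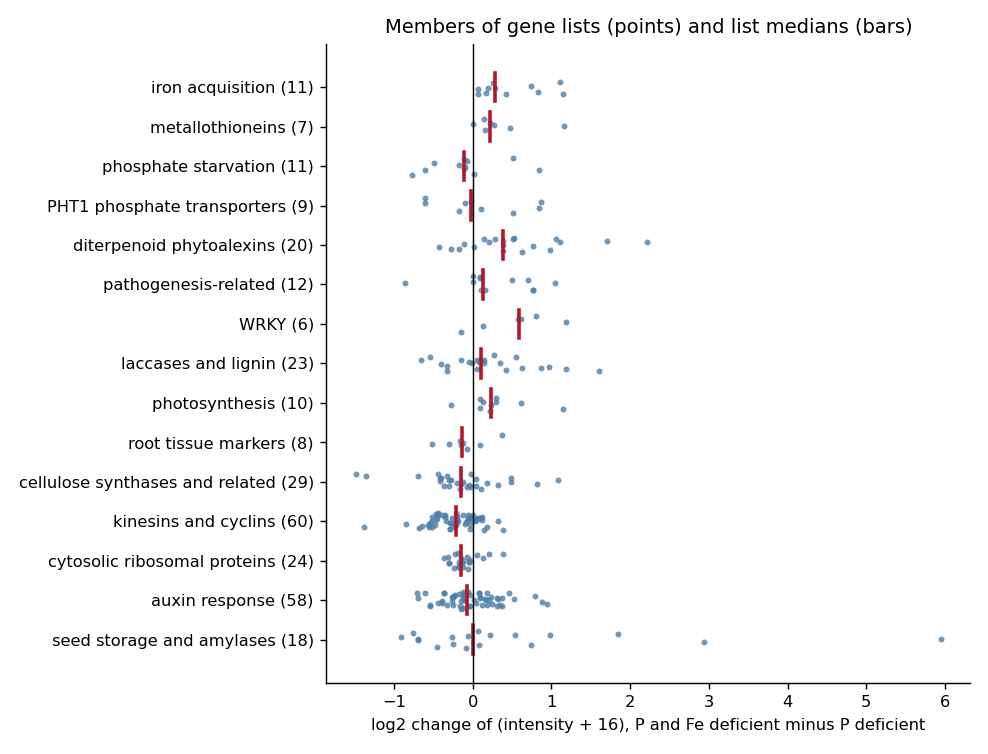
Log2 change between the combined deficiency and P deficiency for each measured member (points) of 15 gene lists, with list medians as bars and the number of members in brackets. Iron uptake members all lie above 0, most kinesin and cyclin members lie below it, and AMY1.1 at 5.95 is the farthest point.

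Bulk RNA cannot tell fewer cells of a type from less RNA per cell, and markers of other tissues were read beside these results. Of 10 photosynthesis genes, markers of shoot tissue, 2 were higher at an unadjusted p below 0.05, OsPSAG and LIR1, and 9 had a change above 0. Their summed intensity was 39440 to 41300 in P deficiency and 42850 to 44810 in the combined deficiency. Most of it came from CAB2R, at 26020 and 24680 in P deficiency and 27810 and 26170 in the combined deficiency. Of 8 root tissue markers 1 was lower, the Casparian strip gene OsCASP1 at -0.52, and the sums were 37470 to 38310 and 35950 to 39320, which overlap. Lsi1 was the largest part of these sums, at 17450 and 16480 in P deficiency and 17390 and 18780 in the combined deficiency. The kinesins and cyclins, read for dividing cells but drawn by name and not limited to genes of such cells, summed to 74970 to 79640 and 66570 to 67140. The parts of shoot tissue and of dividing cells in the results were not tested.

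The list of seed genes joins amylases, storage proteins and lipid transfer proteins, 18 measured. It summed to 15370 to 15420 in P deficiency and 23530 to 27280 in the combined deficiency, and without AMY1.1 to 15220 to 15240 and 14140 to 15000. Of its members 1 rose, LTP2-B, 4 were higher and 1 was lower at an unadjusted p below 0.05, and the median was 0.01. No marker of the 4 lists was at 0 on all arrays. Of the seed storage proteins the globulin gene GLB averaged 3334 in P deficiency and 3879 in the combined deficiency, and GLUA-2 477 and 502. The prolamin gene averaged 38.7 and 89.5 (0.98, unadjusted p below 0.05), and the glutelin genes GLUA-1, GLUA-3, GLUB-4, GLUB-5 and GluC at most 44.5 in either. The sum without AMY1.1 was not higher in the combined deficiency, but it takes in the lipid transfer protein genes. Of these OsLTPL1 averaged 5693 and 4729, LTP110-A 4635 and 3379, and LTP-2 566.5 and 338.5. LTP2-B averaged 151.9 and 1274, and LTP 23.75 and 124.4. The part of seed tissue in the results was not tested. The 4 other measured amylase genes averaged at most 129 in both groups.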

How the data were processed

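The deposited table holds linear probe set intensities from Affymetrix Expression Console 1.1, per the submitters' processing notes. The authors had scaled each array, as the deposited intensities share a 2% trimmed mean near 500; how probes were summarized is not stated. After removal of 123 AFFX and 64 RPTR control probe sets, the 8 arrays were quantile-normalized, 16 was added and log2 taken. One fit of the 4 group means in limma 3.58.1 (lmFit, eBayes) under R 4.3.3, with 4 degrees of freedom from the residuals and 1.74 from the prior, gave the adjusted p-values, with Benjamini-Hochberg adjustment over 57194 probe sets; those named as from the intensity-dependent prior come from a repeat with eBayes' trend option. A platform table matched 22436 probe sets to 1 gene, 95 to several and 34663 to none, which gave 17905 genes, 2450 of them named. Lists take the brightest probe set per gene. Neighbouring genes come from RefSeq assembly ASM3414082v1, a japonica genome, while the plants were Indica.

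The members and lists were chosen with earlier results of these data known, and lists were trimmed by name after values were seen, so no list was tested. Named genes are passing genes with a name, at least 2-fold and without overlap, then up to 12 a direction by unadjusted p below 0.01, up to 5 by locus number, and up to 8 a direction for the difference between Fe changes; LOC identifiers and probe sets beyond that rule were named after their values were seen. Same-numbered arrays did not deviate together, with correlations from -0.0173 to 0.0172. Alternatives were other scalings, added constants, a filter on dim probe sets, another prior, a replicate block and each array left out. The number of arrays limits the precision. No sequences were used here, and the planned promoter motif search was not run.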

Additional observations from a re-analysis of the deposited data

Results flagged for a closer look

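For 17 probe sets of those named, the difference between the Fe change in roots without P and that in roots with P was itself tested in limma and had an adjusted p below 0.05. They are among the 23 probe sets that passed this test (0.0402% of those tested) and are listed because they passed, so the list is not a separate result. A lower Fe change without P was found for probe set Os.10246.5.S1_at (log2 difference -7.12), LOC9271323 (-7.08), LOC4341223 (-6.74), LOC4352472 (-6.61), Os.17045.1.S1_s_at (-5.38), LOC4327106 (-5.27), LOC4334975 (-4.86) and LOC4349058 (-4.55). The same held for LOC9266843 (-4.35), LOC4340877 (-4.16), OsACA1 (-3.65), LOC4334918 (-3.06), LTP2-B (-3.01) and OsAffx.23898.1.S1_at (-2.95). A higher Fe change without P was found for LOC4349197 (2.72), Os.48206.1.S1_at (4.82) and Os.9273.1.S1_x_at (5.64). Adjusted p ranged from 0.0167 to 0.0463. None of these differences passed when an array of the P deficient, Fe deficient or doubly deficient group was left out (4258 to 5223 probe sets at an unadjusted p below 0.05).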

How the results depend on the processing

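For Fe withdrawal without P, 18 probe sets passed, against 26 on the deposited scale, 20 with each array centred on its median, 10 with 1 added before log2, 118 with 64 added, 241 with dim probe sets left out, and 707 with the intensity-dependent prior. With the replicate block 0 passed (5399 at an unadjusted p below 0.05), and 0 with the 4 arrays alone (5311). Leaving out 1 array gave 0 to 12, with 12 without either control array and 0 without any other (4905 to 5526 at an unadjusted p below 0.05). The share of passing probe sets that were higher was 72.2%, 65.4% on the deposited scale and 65.0% with median centring, and the median over all probe sets was -0.01, 0.01 and -0.05. For the difference between Fe changes, 23 passed, against 6 with 1 added, 63 with 64 added, 58 with dim probe sets left out, 355 with the intensity-dependent prior, 0 with the replicate block (4815 at an unadjusted p below 0.05) and 0 to 5 with 1 array left out. For Fe withdrawal with P, 71 passed, against 46 with median centring, 14 with the replicate block and 0 to 10 with 1 array left out (0 without Fe deficient replicate 2, 4117 at an unadjusted p below 0.05). The cause of these shifts was not tested. None of the 27 named values that passed changed sign under any of these alternatives, and 15 of the 61 others did under at least 1 of them, among them OsIRT1, OsYSL16, OsYSL18, OsPT2 and most metallothioneins. Of the 41 list medians, 12 changed sign with another scaling, 12 with 1 of the 4 arrays of the comparison left out, and 17 with either. Those that changed with scaling were metallothioneins, PHT1 transporters (-0.02 to 0.03 on the deposited scale, and 0.25 without doubly deficient replicate 2), glutaredoxins, glutathione S-transferases, superoxide enzymes, seed genes, ethylene, abscisic acid, bHLH, potassium and sodium, sugar and heat shock. The planned motif search was not run, as no promoter sequence was used here.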
